A study of Homo sapiens with 13 samples.

Results

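HMGA1, HMGA2 and RPSAP52 are 3 of the 64486 genes in the annotation, listed by name and followed through 6 lists of ChIP-seq peaks from MDA-MB-231 cells, an established human line of triple-negative breast cancer that is used as a mesenchymal-like, basal B model. The lists are for H3K4me3 (a mark of promoters), H3K27ac (a mark of active promoters and enhancers), H3K4me1 (a mark found mostly at enhancers), RNA polymerase II (Pol II), the histone acetyltransferases p300/CBP and the looping factor CTCF. The cells of all 6 lists were of 1 line, unmodified and grown under standard conditions, so that no treatment was compared. Antibodies had 2 libraries each, merged before peak calling, except p300/CBP, which had 1 library from pooled immunoprecipitations. The lists give positions only. Depth is unknown, no error between replicates can be given, and no test was made: every value below is a description of pooled libraries, set for the main ones beside the same value over all genes or regions of its kind. All coordinates are hg19, as listed, where the end of a peak is the first base after it. For genes, fragments and other stretches the end is the last base.

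HMGA1 and HMGA2 encode small proteins of the high-mobility-group A family, which bind AT-rich DNA in the minor groove through AT-hooks and bend it. Both are abundant in embryonic tissue, scarce in most adult tissue and high again in many carcinomas. HMGA2 messenger RNA is a classical target of the let-7 microRNAs. RPSAP52 is a transcribed pseudogene of the ribosomal protein gene RPSA. It lies on the opposite strand from HMGA2 and starts inside it, and its RNA has been described as a partner of the RNA-binding protein IGF2BP2. In the study, the promoters of HMGA1 and RPSAP52 served as viewpoints of a chromosome capture assay, which gave the promoter-interacting regions (PIRs) read here. That assay used MDA-MB-231 cells transfected with a control siRNA or with siRNAs against the AP-1 transcription factor Fra-1. The study shows its PIRs on the data of the control siRNA. The peak lists are from untransfected cells, so PIRs and peaks come from differently handled cells.

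HMGA1 (ENSG00000137309) is on the plus strand, chr6:34204650-34214008, and is 9.36 kb long. HMGA2 (ENSG00000149948) is on the plus strand, chr12:66218240-66360071, and is 142 kb long. RPSAP52 (ENSG00000241749) is on the minus strand, chr12:66151800-66220777, and is 69.0 kb long. The last 2 genes overlap head to head over 2.54 kb, and the transcription start site (TSS) of the long RPSAP52 transcript, which has 2 exons, lies 2.49 kb inside HMGA2. The transcript that the annotation names as canonical for RPSAP52 is another one. It is 1 exon of 878 bp at the far end of the gene, the copy of RPSA itself. The capture viewpoint of RPSAP52 was placed by matching stretches of its probes to the genome, which gave a GATC fragment of 451 bp, chr12:66220411-66220861, that holds the TSS of the long transcript. The viewpoint of HMGA1, a fragment of 965 bp at chr6:34204019-34204983, likewise holds the HMGA1 TSS. Both fragments were covered over their whole length by H3K4me3, H3K27ac and Pol II and by none of the other lists.

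The stretches of 250 bases just upstream of the HMGA1 and RPSAP52 starts are shown because the peaks below are read around them. Capitals mark GGGCGG on either strand, the core of the GC box bound by SP factors, and TGANTCA, the core of the AP-1 site (it reads the same on both strands). The study gives the consensus as TGAGTCA or TGACTCA, so a match with A or T in the middle is a variant of it. All shares given for the AP-1 core count any middle base. No matches of these motifs overlapped. Sequences are from GRCh37, read in the direction of the gene. That of HMGA1 is chr6:34204400-34204649 and that of RPSAP52 chr12:66220778-66221027 on the minus strand.
HMGA1 upstream: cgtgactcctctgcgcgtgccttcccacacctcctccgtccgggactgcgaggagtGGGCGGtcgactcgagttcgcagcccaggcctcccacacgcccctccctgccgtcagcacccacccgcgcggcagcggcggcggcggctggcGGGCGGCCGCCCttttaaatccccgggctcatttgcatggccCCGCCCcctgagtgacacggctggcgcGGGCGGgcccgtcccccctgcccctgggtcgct
RPSAP52 upstream: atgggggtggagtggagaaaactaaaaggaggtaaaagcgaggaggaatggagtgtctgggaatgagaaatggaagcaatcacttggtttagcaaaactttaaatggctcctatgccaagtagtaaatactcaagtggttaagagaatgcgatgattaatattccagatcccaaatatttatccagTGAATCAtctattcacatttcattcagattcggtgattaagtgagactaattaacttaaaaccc
HMGA1 had 5 GC boxes, 2 of them adjoining, and 74.8% G and C, and RPSAP52 had none and 37.6%. Over all protein-coding genes the same stretch had a median of 63.2% G and C (quartiles 54.0% and 71.2%), and 59.1% of the stretches held a GC box. The RPSAP52 stretch held 1 AP-1 core, which was present in 4.69% of the stretches of all protein-coding genes. Neither held TATAAA, found in 9.25% of them.

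At the HMGA1 TSS, the window of 3 kb held regions of 3 of the 6 lists, namely H3K4me3, H3K27ac and Pol II. These 3 were present together in 56.2% of the 19894 windows of protein-coding genes, so their presence is not particular to HMGA1. Taken singly, the windows held H3K4me3 in 62.7%, H3K27ac in 61.4%, H3K4me1 in 59.3%, Pol II in 58.4%, CTCF in 17.6% and p300/CBP in 0.769% of genes. The regions themselves were wide. The H3K4me3 region ran from 34203701 to 34213201, or 9.50 kb, and was among the 43 of 12184 H3K4me3 regions at such windows that were at least that wide (0.353%, median 2000 bp). Here and below, such counts include the member itself. The Pol II peak was 14.9 kb wide, from 34202851 to 34217751, and 1.22% of the Pol II peaks at TSS windows were at least that wide. H3K27ac was split in 2. A region of 1.30 kb covered the TSS, and after a gap of 500 bp a region of 12.6 kb, from 34205501 to 34218051, covered the rest of the gene and the next gene, SMIM29 (0.356% of regions at least as wide, median 1850 bp). That gap is at the limit of 500 bp up to which the authors joined H3K27ac bins, so the split depends on that setting.

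The HMGA1 body was thereby covered over 100% of its length by Pol II, 94.7% by H3K27ac, 91.4% by H3K4me3 and 66.3% by H3K4me1. For H3K4me3, 192 of 19894 protein-coding genes had a share at least as high, and the median gene had 2.19%. For H3K27ac the corresponding number was 190 genes and the median 2.81%. For Pol II it was 557 genes and for H3K4me1 523, with medians of 0.752% and 6.54%. The gene is short, and part of its cover came from regions that also span SMIM29, whose TSS lies 12.1 kb downstream of that of HMGA1. H3K4me1 was absent from the window around the first TSS. It began in intron 2 and ran over exons 3 to 6 (34207801 to 34216001).

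**Figure D1:**
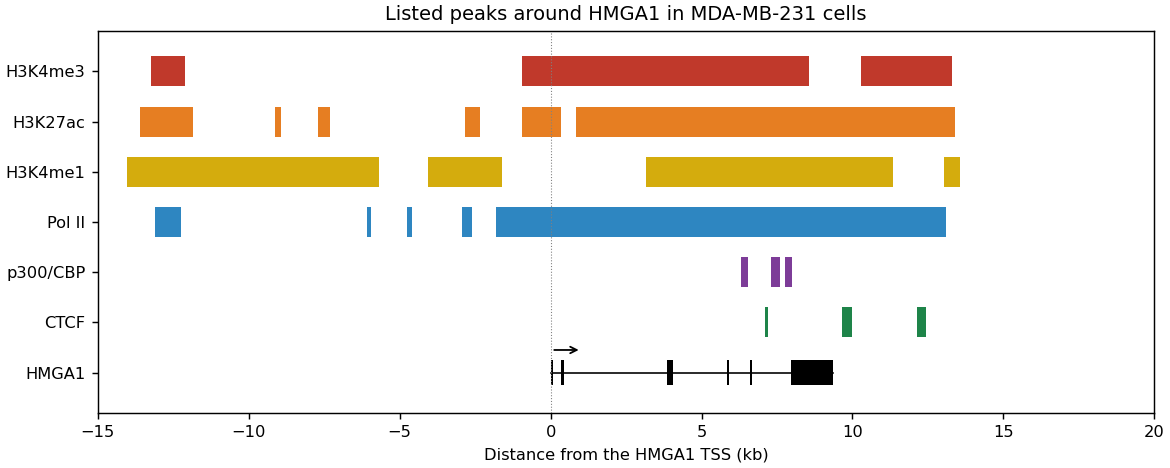
Peaks of the 6 lists (rows) around HMGA1, against the distance from its TSS in kb, with the exons of its canonical transcript as black boxes. H3K4me3, H3K27ac and Pol II cover nearly the whole gene, and the 3 p300/CBP peaks sit together in its last 2 introns.

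HMGA1 held 3 p300/CBP peaks, with none in the 200 kb on either side. The first was in intron 4 (34210951 to 34211201), the second in intron 5 (34211951 to 34212251), and the third crossed from intron 5 into the coding part of exon 6 (34212401 to 34212651). Their centres were 6.43, 7.45 and 7.88 kb downstream of the TSS. Outside the gene the nearest p300/CBP peak was 455 kb upstream of the TSS on one side and 902 kb beyond the gene end on the other. At least 1 such peak was present in 10.9% of protein-coding gene bodies and at least 3 in 2.61%. p300/CBP covered 8.55% of the HMGA1 body, and 21 genes in all, HMGA1 included, had such a share or a higher one. All 3 peaks were inside H3K27ac, H3K4me1 and Pol II regions. They were not counted as lying in candidate active enhancers (cAEs, H3K4me1 regions that share at least 1 bp with H3K27ac and touch no promoter window), because that H3K4me1 region reaches the promoter window of SMIM29. The study itself placed a site overlapping the second peak in a cAE, so its call and the call made here differ at that site.

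The first and the third p300/CBP peak of HMGA1 held the AP-1 core and the second did not. Yet the study assayed a site overlapping the second peak, chosen for high ChIP signal of Fra-1 and of its relative Fra-2. A missing core is therefore no measure of AP-1 binding. The sequences of the first and the third are shown on the plus strand with the AP-1 core in capitals. They span chr6:34210951-34211201 and chr6:34212401-34212651, and the third peak holds 2 cores 23 bp apart.
HMGA1 intron 4 p300/CBP peak: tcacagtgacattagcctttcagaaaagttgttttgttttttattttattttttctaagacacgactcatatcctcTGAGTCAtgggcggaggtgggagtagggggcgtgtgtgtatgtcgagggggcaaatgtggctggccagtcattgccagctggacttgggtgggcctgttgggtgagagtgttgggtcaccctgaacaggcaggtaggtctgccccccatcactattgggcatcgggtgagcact
HMGA1 intron 5 to exon 6 p300/CBP peak: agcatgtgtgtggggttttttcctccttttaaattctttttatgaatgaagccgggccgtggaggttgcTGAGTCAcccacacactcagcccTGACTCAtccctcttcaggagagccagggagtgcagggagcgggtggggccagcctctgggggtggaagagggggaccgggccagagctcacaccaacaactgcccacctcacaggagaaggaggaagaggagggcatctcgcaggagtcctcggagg
Of the 1262 p300/CBP peaks that were also 250 bp wide, 50.8% held the core, and of all 13984 p300/CBP peaks 28.1% did. The corresponding share was 8.54% in the CTCF list and, as given above, 4.69% in stretches upstream of genes, which are 250 bp wide. The core was thus a common feature of p300/CBP peaks of that width and not particular to HMGA1.

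Between the first and the second of these p300/CBP peaks, in intron 5, the CTCF list held a peak of 100 bp at chr6:34211751-34211851. It is the only CTCF peak in the HMGA1 body, and the nearest one upstream was 39.0 kb before the TSS. Capitals mark a match to the CTCF core motif on the plus strand.
HMGA1 intron 5 CTCF peak: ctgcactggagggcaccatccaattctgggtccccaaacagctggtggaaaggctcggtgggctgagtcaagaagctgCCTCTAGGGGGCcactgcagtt
The motif was found in 12.5% of the 5046 CTCF peaks of 100 bp, in 33.3% of all CTCF peaks and in 0.415% of p300/CBP peaks. The same peak also held an AP-1 core, TGAGTCA, starting at 34211814. Further CTCF peaks stood at 9.83 and 12.3 kb from the HMGA1 TSS, past the gene and next to SMIM29, and neither held the motif.

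At HMGA2, the window around the TSS held 4 lists, namely H3K4me3, H3K27ac, Pol II and H3K4me1, with neither p300/CBP nor CTCF. The same combination was present at 36.2% of protein-coding windows. H3K4me3 covered the window over all of its 3000 bp, as did H3K27ac and Pol II, while H3K4me1 covered 488 bp at its upstream edge. The window of the long RPSAP52 transcript held 3 lists, H3K4me3, H3K27ac and Pol II, each over 3000 bp. The window of the canonical RPSAP52 transcript, at the pseudogene copy 68.0 kb away, held no peak of any list. The count for RPSAP52 therefore depends on the start that is taken: it was 0 for the canonical transcript and 3 for the long one, a choice made after seeing the data.

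A single region of each list covered both starts. H3K4me3 ran from 66216751 to 66227751 (11.0 kb, and 20 of 12184 regions at TSS windows were at least as wide, or 0.164%). H3K27ac ran from 66216501 to 66229751 (13.2 kb, 0.299% at least as wide). The Pol II peak ran from 66216601 to 66255151 (38.5 kb), and 10 of 10405 Pol II peaks at TSS windows were at least as wide, or 0.0961%. The upstream edges of the 3 regions fell within 250 bp of each other, 1.51 to 1.76 kb before the HMGA2 TSS. Beyond the TSS of the long RPSAP52 transcript, inside HMGA2, H3K4me3 reached 6997 bp, H3K27ac 8997 bp and Pol II 34.4 kb. ChIP signal carries no strand, so these regions cannot be assigned to HMGA2 or to RPSAP52, whose contributions cannot be told apart. H3K4me1 was absent between the starts and lay at the edges of the shared region, from 66216401 to 66217251 and from 66224751 to 66229751. No p300/CBP peak was nearer than 45.1 kb to the HMGA2 TSS.

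**Figure D2:**
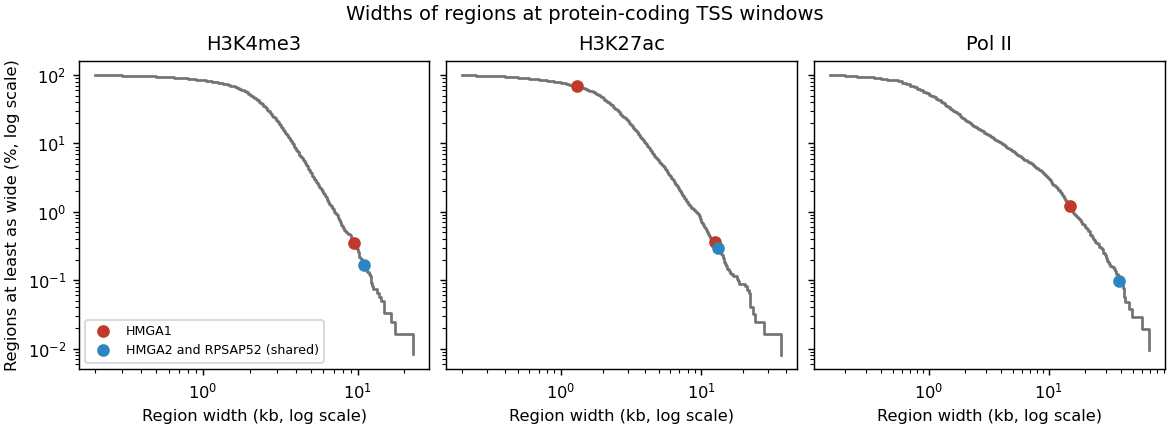
Share of the regions at protein-coding TSS windows (percent, log scale) that are at least as wide as the width on the x axis (kb, log scale), for H3K4me3, H3K27ac and Pol II, with the regions of the members as points. HMGA1 and the region shared by HMGA2 and the long RPSAP52 transcript are among the widest few percent in each list, except the 1.30 kb H3K27ac region at the HMGA1 TSS, which 68.5% of regions match or exceed.

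The cover of the 2 gene bodies lay far apart. Of the whole HMGA2 body, 83.2% was covered by Pol II, in 20 peaks, and 67.7% by H3K4me1, in 17 regions. Among the 3648 protein-coding genes of at least 100 kb, only 4, HMGA2 included, had as high a Pol II share (median 0.208%), and 8 had as high an H3K4me1 share (median 4.36%). The Pol II peaks of HMGA2 were 200 to 38550 bp wide, were separated by gaps of 800 to 2500 bp, and the last of them reached 4.73 kb past the annotated end of the gene. Pol II bins less than about 800 bp apart had been joined by the authors, so the number of peaks depends on that setting. In intron 3, the longest at 113 kb, Pol II covered 84.4%, H3K4me1 74.5% and H3K27ac 11.6%. Outside the shared H3K27ac region, the remaining 130 kb of HMGA2 was covered over 81.7% by Pol II and 69.8% by H3K4me1. The part of RPSAP52 outside that region, 64.7 kb, was covered over 5.02% by Pol II and over 7.19% by H3K4me1, in 3 peaks and 4 regions. Over all protein-coding genes the median Pol II share of a body was 0.752%.

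**Figure D3:**
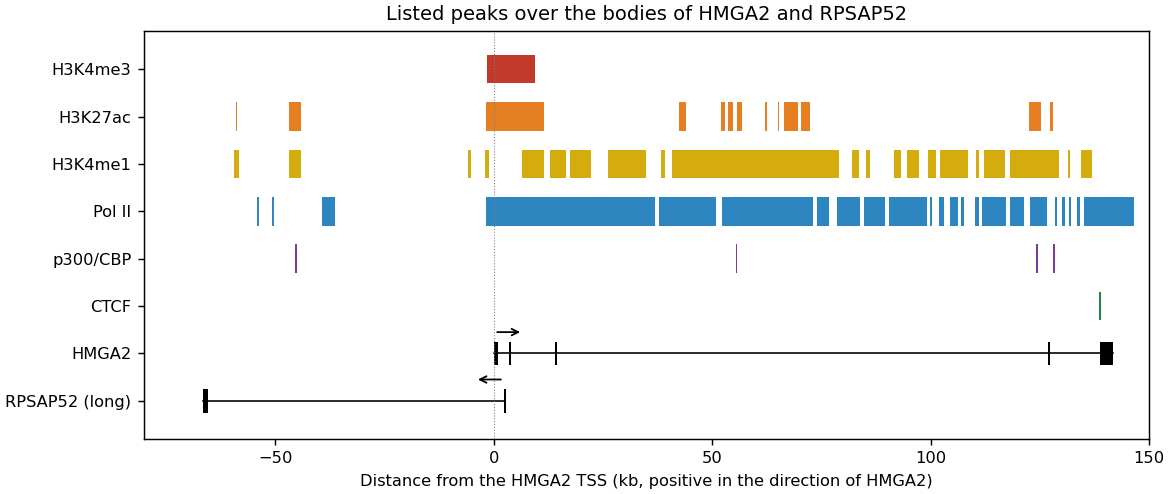
Peaks of the 6 lists (rows) over HMGA2 and the long transcript of RPSAP52, against the distance from the HMGA2 TSS in kb, with exons as black boxes and arrows for the direction of transcription. Narrow peaks are drawn at a least width. Pol II and H3K4me1 run through the HMGA2 body to the right, while few peaks lie in RPSAP52 to the left.

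**Figure D4:**
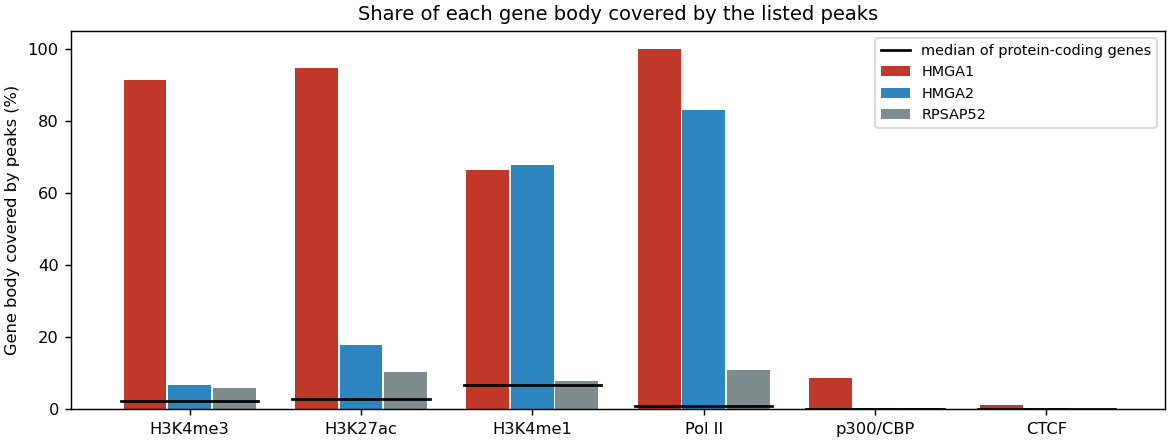
Share of each gene body covered by each list (percent, bars) for HMGA1, HMGA2 and RPSAP52, with the median of all 19894 protein-coding genes as black lines. Pol II covers 100% of HMGA1, 83.2% of HMGA2 and 10.8% of RPSAP52, which includes the stretch RPSAP52 shares with HMGA2.

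Most H3K4me1 regions in HMGA2 had no H3K27ac, and some were very wide. A region in intron 3 spanned 38.3 kb, from 66259001 to 66297301. It shared bases with 8 H3K27ac regions and counted as 1 cAE, and 21 of the 24306 cAEs of chromosomes 1 to 22 and X were at least as wide (median 2550 bp). A second one, of 11.2 kb, crossed exon 4 and held 3 p300/CBP peaks. Altogether 3 H3K4me1 regions of the body were cAEs and 14 were candidate inactive enhancers (cIEs, H3K4me1 without H3K27ac). All 14 cIEs shared bases with Pol II, against 3.76% of the 49280 cIEs in the genome, and none with p300/CBP, which 1.26% of all cIEs held. The widest of the 14, at 8.60 kb, was matched or exceeded by 22 cIEs in the genome. Since Pol II covers most of the body, nearly any region in it would share bases with Pol II.

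HMGA2 held 4 p300/CBP peaks (66273751 to 66273951, 66342501 to 66342651, 66342701 to 66342801 and 66346501 to 66346601), and at least 1 was present in 35.2% of the protein-coding bodies of 100 kb or more. They were 100 to 200 bp wide, in introns 3 and 4, and 1 of them held the AP-1 core. RPSAP52 held 1, in its only intron (66173001 to 66173201), 47.7 kb from its start, in a cAE of 2.85 kb. Its sequence is shown because the amplicon of a primer pair that the study designed at RPSAP52 overlaps it. The AP-1 core, here the variant TGAATCA, is in capitals, on the plus strand of chr12:66173001-66173201.
RPSAP52 intron 1 p300/CBP peak: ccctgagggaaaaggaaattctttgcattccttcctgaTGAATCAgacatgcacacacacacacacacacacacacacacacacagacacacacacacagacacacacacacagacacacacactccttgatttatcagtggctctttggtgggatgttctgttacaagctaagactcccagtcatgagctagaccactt
Of p300/CBP peaks that were 200 bp wide, 37.9% held the core.

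The locus of HMGA2 and RPSAP52, with 200 kb on either side, held 9 CTCF peaks that covered 0.411% of it, against 0.396% of the genome. None was listed between 66079601 and 66356900, a stretch of 277 kb that holds both promoters, all of RPSAP52 and nearly all of HMGA2. Of the 39491 gaps between neighbouring CTCF peaks, 4.59% were at least as long, and the median gap was 34.4 kb. The gap was taken because it holds the HMGA2 TSS, and a long gap holds more positions than a short one. This share of gaps therefore understates how often a position of the genome lies in such a stretch. The CTCF peak that ends the stretch crosses from intron 4 into the last exon of HMGA2. Its distance from the HMGA2 TSS and that of the peak at the other end were both 139 kb.

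Within 200 kb of the gene bodies, the HMGA1 locus held 6 cAEs and 18 cIEs, and the locus of HMGA2 and RPSAP52, which is 608 kb long against 409 kb, held 19 cAEs and 22 cIEs. The count of 6 cAEs fell to 1 where an overlap had to take in 50% of a peak or narrow peaks were dropped. With flanks of 500 kb the loci held 20 and 28 cAEs. The numbers of p300/CBP peaks were 3 and 16, which covered 0.195% and 0.715% of the loci, against 0.0897% of the genome. H3K27ac covered 6.14% of the first locus and 13.6% of the second, against 2.34% of the genome. Of the 19 cAEs of the second locus, 10 held p300/CBP, against 20.6% of all cAEs, whereas none of the 6 cAEs of the HMGA1 locus did. That absence follows from the rule for cAEs. The 3 p300/CBP peaks of HMGA1 lie in H3K4me1 and H3K27ac, but their H3K4me1 region was left out because it reaches the promoter window of SMIM29. CTCF was present at 4 of those 6 cAEs and at 5 of the 19, against 16.4% of all cAEs. The cAEs nearest to HMGA1 lay upstream of it, one of 2.45 kb from 34200601 to 34203051 and one of 8.35 kb from 34190601 to 34198951, and both shared bases with Pol II. The cAEs were unevenly placed around HMGA2 and RPSAP52. The 200 kb beyond the end of RPSAP52 held 11 cAEs and 8 p300/CBP peaks, with 24.1% of bases in H3K27ac, and the 200 kb beyond the end of HMGA2 held 3 cAEs and 3 p300/CBP peaks, with 2.38%. All but 2 of these 16 p300/CBP peaks were inside cAEs, though only 12 of the 16 themselves touched H3K27ac. The first exception, from 65997651 to 65998051, was in H3K27ac between H3K4me1 regions, and the second, from 66451351 to 66451451, touched no region of any other list. Most of that second peak is an unbroken run of T, with 10.0% G and C. Whether it is a true binding site was not tested, and it is counted among the 16.

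The PIRs of RPSAP52 all lie on that side, past its end, with centres 176 to 510 kb from the TSS of the long transcript. H3K27ac was present in 5 of the 6 PIRs and p300/CBP in the same 5, against 13.3% and 2.86% of 10 kb tiles of the genome. PIRs were 1.99 to 16.9 kb long, so the tiles are only a rough measure. Among the 126 PIRs read for 32 other genes, 69.8% held H3K27ac and 28.6% held p300/CBP. The PIRs make up 9.92% of the 511 kb between the TSS and the far edge of PIR 1. They held 8 of the 14 p300/CBP peaks and 9 of the 23 H3K27ac regions of that span, and 68.8% of their bases were in H3K27ac against 14.2% of the span. CTCF was present in 2 of the 6, against 12.3% of tiles and 38.9% of the PIRs of other genes.

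The 6 PIRs were not alike. PIR 1 (65709401 to 65711389), in MSRB3, a gene for a methionine sulfoxide reductase, touched no peak of any list. PIR 2 (65925060 to 65929897), in MSRB3-AS1, was covered over 100% by H3K27ac and by H3K4me1 and held 3 p300/CBP peaks, 1 Pol II peak and an H3K4me3 region of 200 bp. PIR 3 (65949139 to 65957923) held 1 p300/CBP peak and 1 CTCF peak in 2 cAEs. PIR 4 (65991664 to 66008548), the longest, held an H3K4me3 region of 1500 bp with a Pol II peak and 1 of its 2 CTCF peaks at alternative starts of the long noncoding RNA LINC02454, and 1 p300/CBP peak beside them. PIR 5 (66020899 to 66029637) held 2 p300/CBP peaks and 2 Pol II peaks in 1 cAE of 7.60 kb. PIR 6 (66040083 to 66049554) held 1 p300/CBP peak and 1 Pol II peak, with 85.7% of its bases in H3K27ac.

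**Figure D5:**
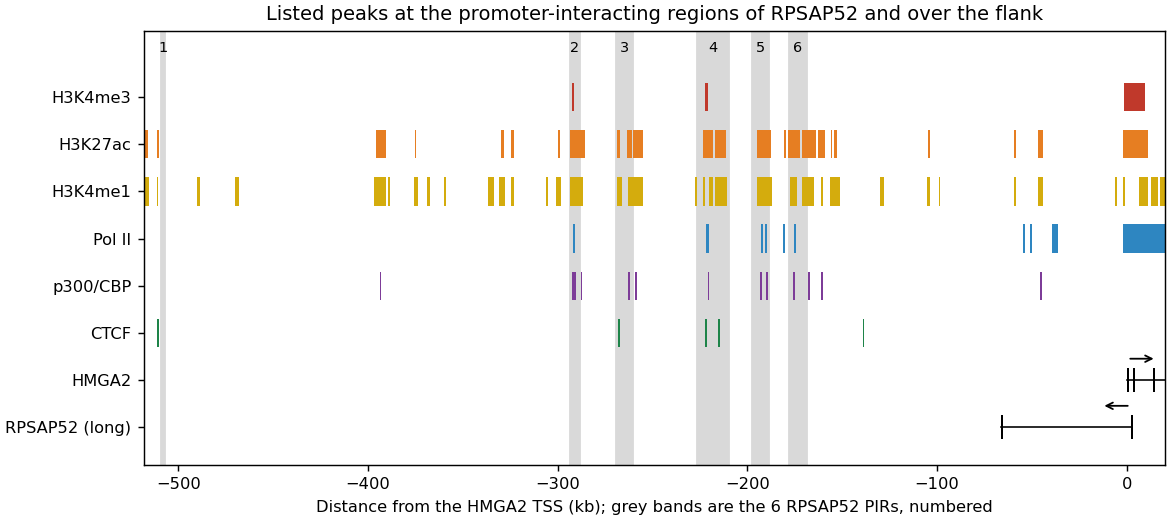
Peaks of the 6 lists (rows) from PIR 1 to the shared promoter, against the distance from the HMGA2 TSS in kb, with the 6 RPSAP52 PIRs as grey bands. Narrow peaks are drawn at a least width. PIRs 2 to 6 hold H3K27ac and p300/CBP, further peaks lie outside the PIRs, and PIR 1 holds none.

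The AP-1 core was found in 3 of the 8 p300/CBP peaks of the PIRs, both peaks of PIR 5 and the peak of PIR 6, and in none of the 5 peaks of PIRs 2 to 4. These 3 peaks are 500 or 550 bp wide, so stretches of 107 bases around the core are shown, with the core in capitals, on the plus strand. They are chr12:66025542-66025648, chr12:66028815-66028921 and chr12:66042942-66043048. The peak of PIR 6 holds another core, the variant TGATTCA, 93 bp further on.
PIR 5 first p300/CBP peak: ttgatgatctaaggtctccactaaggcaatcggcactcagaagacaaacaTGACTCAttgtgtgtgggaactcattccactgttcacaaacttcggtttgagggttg
PIR 5 second p300/CBP peak: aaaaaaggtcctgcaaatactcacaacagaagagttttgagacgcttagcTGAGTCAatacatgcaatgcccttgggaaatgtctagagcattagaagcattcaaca
PIR 6 p300/CBP peak: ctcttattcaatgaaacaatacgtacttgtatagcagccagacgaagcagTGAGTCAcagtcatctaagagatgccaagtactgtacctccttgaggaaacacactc
The core was present in 43.5% of all p300/CBP peaks of 500 bp and in 55.4% of those of 550 bp. Of the 5 amplicons that the study designed here, 4 matched the genome exactly with both primers, and each of the 4 overlapped a p300/CBP peak as well as H3K27ac and H3K4me1. The study designed them at Fra-1 binding sites of PIRs, so this overlap is not independent of how the sites were chosen. The 4 amplicons lie 47.7, 163, 178 and 195 kb from the TSS of the long transcript. Those at 178 and 195 kb are in PIRs 6 and 5, and those at 47.7 and 163 kb lie outside all 6 PIRs read here.

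In the 3 PIRs of HMGA1, H3K27ac was present in 2 and p300/CBP in none, against 69.8% and 28.6% of the 126 PIRs of other genes. PIR 1 (34175463 to 34176958), 28.4 kb upstream of the TSS, touched 1 H3K4me1 region without H3K27ac and no other list. PIR 2 (34356823 to 34362391), 155 kb downstream, held the promoter of NUDT3, which encodes a diphosphoinositol phosphohydrolase, with H3K4me3, H3K27ac, Pol II and CTCF. PIR 3 (34378736 to 34395110), 182 kb downstream, held the promoter of RPS10, a ribosomal protein gene, with H3K4me3 over 2950 bp and Pol II over 13150 bp, and a cAE of 6.35 kb with CTCF. No test was made of the difference between the 3 PIRs of HMGA1 and the 6 of RPSAP52.

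Genes related to the members were read in the same windows, from lists chosen with earlier results of these data known. Of 9 relatives, which encode HMGB and HMGN chromatin proteins, 8 held H3K4me3, H3K27ac and Pol II, against 56.2% of all protein-coding windows, and HMGB4, a testis gene, held none of the 6 lists. None of the 9 windows held p300/CBP or CTCF, which were present at 0.769% and 17.6% of all windows. Of 8 genes of the let-7 axis and of RNA-binding partners, 5 held the 3 lists, a share near the 56.2% of all windows. They included IGF2BP2, which binds messenger RNA, and DICER1, which processes microRNAs. LIN28B, which blocks let-7 maturation, held none of the 6 lists, and LIN28A held H3K4me1 only. At IGF2BP2 both H3K4me3 and Pol II covered all 3000 bp of the window, as at HMGA2. The labelled cell type was checked on markers. All 5 basal B markers (VIM, CD44, AXL, CAV1 and MSN) held H3K4me3, H3K27ac and Pol II, again against 56.2% of all windows, while ESR1, GATA3 and CDH1 held none of the 6 lists, PGR held H3K4me3 only and FOXA1 held 5 lists.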

How the data were processed

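ChIP had been sequenced in MDA-MB-231 cells with 6 antibodies. The authors aligned reads to hg19 (BWA-backtrack in their methods, Bowtie2 in the submitters' processing notes), made signal in bins of 50 bp, merged replicates and called peaks by thresholding (30 for H3K4me1 and H3K4me3, 50 for H3K27ac, Pol II and CTCF, 60 for p300/CBP). The largest gap bridged within a peak was 1000 bp (H3K4me1), 800 bp (Pol II), 500 bp (H3K4me3, H3K27ac) or 50 bp (the others), so widths differ between lists. Scaling and background subtraction were stated for the histone marks and p300/CBP, scaling alone for Pol II and neither for CTCF. The deposited files hold positions only, in base pairs, with 13984 (p300/CBP) to 88319 (H3K4me1) peaks per list. The paper reports fewer p300/CBP, Pol II and CTCF peaks at the same thresholds, most markedly for p300/CBP. Counts and shares given here rest on the deposited lists. Input libraries were not used here. Depth is unknown.

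Positions were compared with Python 3.11.15, NumPy 2.4.6 and pysam 0.24.0, by a shared stretch of at least 1 bp, with GENCODE release 44 on GRCh37. The code for overlaps was checked in 1200 simulated cases, of which 0 came out wrong. PIR positions were read from the study's supplement. Members and lists were chosen with earlier results of these data known. Named were the 3 members, genes of the 200 kb flanks or PIRs with a described peak, and at most 4 genes of each related list, with the others in counts, beside the cell type markers. The sequence upstream of 1 member is not reported here.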

Additional observations from a re-analysis of the deposited data

How the results depend on the processing

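Across 10 counts and 56 alternatives, 44 values stayed within 1.5 times the reported count and 12 moved. Requiring the peak centre or 50% of the peak inside a TSS window left 1 list at HMGA1 and 1 at HMGA2, because the wide regions have their centres outside. At RPSAP52 the count of 0 lists became 3 with every basic TSS and 3 with the TSS of the long transcript, the latter chosen after seeing the data. The 6 cAEs of the HMGA1 locus became 1 when an overlap had to take in 50% of a peak, 1 when peaks narrower than their list's median were dropped, and 20 with flanks of 500 kb. The 19 cAEs of the HMGA2 and RPSAP52 locus became 12 with the 50% overlap and 10 with flanks of 100 kb, which also left 8 of 16 p300/CBP peaks. The counts of PIRs did not move under the 3 alternatives tried. No paired analysis was possible because no list was called per replicate, which also meant that no library could be left out. Without a value per peak, a stricter threshold could not be applied and differences in signal height were not measured.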

Other observations

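Other genes of the 2 loci were also read. In the HMGA1 locus, 4 of the 5 other protein-coding genes had H3K4me3 at their canonical TSS window, against 62.7% of all protein-coding windows. Of these, RPS10 and RPS10-NUDT3 start at nearly the same base, so that promoter is counted for both. SMIM29 and NUDT3 each held 5 of the 6 lists, all but p300/CBP, while GRM4, a glutamate receptor gene upstream, held none. A lncRNA, ENSG00000288879, starts on the minus strand 125 bp upstream of the HMGA1 TSS, and its window held 4 lists.

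In the other locus, the antisense transcript HMGA2-AS1 starts in intron 3 of HMGA2 at a window with H3K27ac, H3K4me1 and Pol II but no H3K4me3. The window of the lncRNA ENSG00000256083, also in HMGA2, held the same 3 lists and 2 of the 16 p300/CBP peaks of the locus. LLPH and its divergent transcript LLPH-DT, past the end of HMGA2, held 4 lists. Strand is not recorded, so the share of HMGA2 and of its antisense transcripts in the Pol II peaks of the body cannot be told apart.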
